A study of Homo sapiens with 4 samples.

Results

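Regions inside gene bodies with overlapping MTA1 peaks in 2 lists were described in HCT116 cells, an established epithelial line from a human colorectal carcinoma. Chromatin immunoprecipitation sequencing (ChIP-seq) had been done on formaldehyde-fixed cells for which the labels name no treatment, giving 2 libraries with an MTA1 antibody and 2 of input chromatin without antibody, and the authors deposited 1 peak list for each MTA1 library against a control. The lists held 31826 peaks (list 1) and 30732 peaks (list 2) on chromosomes 1 to 22. Overlapping peaks (1 bp or more) were merged, and the 1112 merged intervals with a peak of each list are called shared regions. Of these, 454 had a midpoint inside a protein-coding RefSeq gene and more than 1000 bp from every protein-coding gene end, the definition used here for the gene interior. The other shared regions were 349 at gene ends and 309 outside protein-coding genes. The 454 regions lay in 448 genes, 11 of them inside 2 genes at once, and 451 held exactly 1 peak of each list. These regions were chosen by the peak calls of both lists, their overlap and their position, so scores and overlaps are a description without a test. Nothing in the labels says that the libraries came from separate cultures, no read depth was analysed here, and intervals of shares are 95% Wilson intervals that cover counting error only.

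MTA1 is a scaffold subunit of the nucleosome remodelling and deacetylase complex, NuRD, in which it holds the histone deacetylases HDAC1 and HDAC2 and links them to histone chaperones of the RBBP family and to the CHD remodelling ATPases. NuRD is known at promoters and enhancers, where it removes acetyl groups from histones and shifts nucleosomes, and its MBD2 form binds methylated CpG dinucleotides. MTA1 is best known for its raised level in carcinomas, colorectal carcinoma among them. Gene bodies hold introns, exons, enhancers and also the starts of shorter transcripts, so a region in a gene interior can lie at a promoter.

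Some of the shared interior regions lay at annotated transcript starts inside genes, and the results below turn on them. The sequence before the nearest start is therefore shown for the 5 regions at a start that ranked best in both lists. Each line holds the 250 bases before the start, 5′ to 3′ on the strand of the transcript, from RefSeq on GRCh38.p14, with CG dinucleotides in capitals. All 5 stretches lie wholly within their shared region. In OSBPL3, however, the peaks of both lists overlapped by only 20 bp, so at most 20 of the bases shown lie in both. That gene held 0 interior list 1 peaks, so the list 1 peak of its region had its midpoint outside the gene interior as defined here. They are chr19:488916-489165 on the plus strand (the start of the non-coding gene LOC124904608 inside CIMAP1D), chr12:109052326-109052575 on the plus strand, chr20:64062948-64063197 on the plus strand, chr12:401394-401643 on the plus strand and chr7:24980179-24980428 on the minus strand.
LOC124904608: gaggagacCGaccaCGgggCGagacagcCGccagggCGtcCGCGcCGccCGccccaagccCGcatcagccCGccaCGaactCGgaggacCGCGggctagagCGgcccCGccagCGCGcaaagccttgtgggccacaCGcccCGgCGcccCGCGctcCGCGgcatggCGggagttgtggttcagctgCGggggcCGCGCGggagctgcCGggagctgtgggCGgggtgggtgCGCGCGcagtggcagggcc
USP30: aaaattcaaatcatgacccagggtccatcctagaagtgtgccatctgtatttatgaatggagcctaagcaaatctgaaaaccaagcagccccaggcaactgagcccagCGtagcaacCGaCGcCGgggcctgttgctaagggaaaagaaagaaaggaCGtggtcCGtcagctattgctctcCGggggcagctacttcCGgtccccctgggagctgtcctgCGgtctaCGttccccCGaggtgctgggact
TCEA2: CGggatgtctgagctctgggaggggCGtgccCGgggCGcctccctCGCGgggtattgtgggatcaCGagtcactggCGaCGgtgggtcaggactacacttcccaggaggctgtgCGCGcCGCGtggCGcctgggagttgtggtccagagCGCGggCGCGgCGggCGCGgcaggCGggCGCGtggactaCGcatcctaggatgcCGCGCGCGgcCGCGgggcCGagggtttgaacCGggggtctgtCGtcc
CCDC77: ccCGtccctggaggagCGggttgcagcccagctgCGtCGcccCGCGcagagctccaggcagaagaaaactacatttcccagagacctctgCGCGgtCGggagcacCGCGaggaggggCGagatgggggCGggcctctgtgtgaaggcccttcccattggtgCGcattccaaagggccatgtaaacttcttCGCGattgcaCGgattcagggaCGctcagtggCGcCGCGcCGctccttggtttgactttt
OSBPL3: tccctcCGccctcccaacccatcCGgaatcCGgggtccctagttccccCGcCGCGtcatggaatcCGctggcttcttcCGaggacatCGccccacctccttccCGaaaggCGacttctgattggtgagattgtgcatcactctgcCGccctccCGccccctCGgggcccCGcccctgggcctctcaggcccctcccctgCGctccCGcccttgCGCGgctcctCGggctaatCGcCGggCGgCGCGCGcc
The number of CG dinucleotides was 36 before LOC124904608, 34 before TCEA2, 26 before OSBPL3, 22 before CCDC77 and 11 before USP30. The GC content ran from 55.6% (USP30) to 78.4% (LOC124904608).

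One region at a start, in BTG4 (chr11:111512436-111513288), also held the whole hairpin of MIR34B, of the miR-34 family known as targets of p53. Its mature sequences from RefSeq are shown because both lie in this region, with the seed (bases 2 to 8) in capitals.
hsa-miR-34b-5p: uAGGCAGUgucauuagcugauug
hsa-miR-34b-3p: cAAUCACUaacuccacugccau
The seeds of both arms differ.

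The shared interior regions spread over nearly the whole range of ranks in both lists. Scores are the authors' peak caller values, with a minimum of 50 in each list, and were ranked within a list. The list 1 score ran from 50.05 to 518.16 with a median of 65.15, and the list 2 score from 50.01 to 190.94 with a median of 61.375. The median member stood at 47.2% of the way down list 1 and 47.7% down list 2, close to the middle of each. The best 10% of list 1 held 70 of the 454 (15.4%, 12.4 to 19.0), and the best 10% of list 2 held 66 (14.5%, 11.6 to 18.1). In all, 16 of 454 (3.52%, 2.18 to 5.65) were among the best 10% of both lists, against 59 of 349 shared regions at gene ends (16.9%) and 5 of 309 outside protein-coding genes (1.62%). Across the 454 regions, the Spearman correlation between both scores was 0.04, so a high score in 1 list carried little about the other list. The regions were a median 820.5 bp wide, and the peaks of both lists overlapped by a median 414.5 bp.

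**Figure D1:**
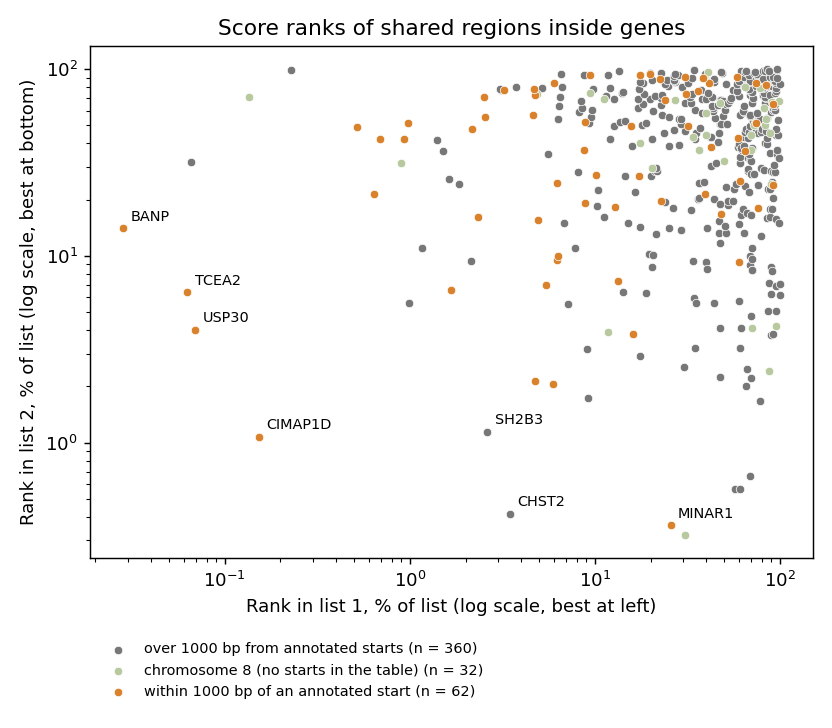
Rank of each of the 454 shared interior regions in list 1 (x axis) and list 2 (y axis), as a percentile where low values are the best scores, with regions at an annotated transcript start marked. The regions spread over the whole plane, and those at a start gather at the low end of list 1, with a median of 11.5%.

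The best combined rank, the sum of the ranks in both lists, belonged to a region in CIMAP1D on chromosome 19 (chr19:488420-489438), which ranked 49 in list 1 with a score of 355.59 and 331 in list 2 with a score of 126.94. Its midpoint lay 237 bp from the start of LOC124904608 shown above. SH2B3, an adaptor that restrains cytokine receptor signalling, was next with scores of 154.00 and 125.23, and the region lay 14.1 kb from the nearest gene end and 12.9 kb from the nearest annotated start. CHST2, a sulfotransferase that modifies carbohydrate chains, scored 143.05 and 159.07. Its gene is 4.24 kb long and the region lay 1360 bp from its annotated start. The gene held 0 interior list 2 peaks, so the list 2 peak of its region had its midpoint outside the gene interior. In USP30, a deubiquitinase on mitochondria that limits mitophagy, the region ranked 22 in list 1 with a score of 450.54 and 1240 in list 2 with a score of 99.76. In TCEA2, a transcription elongation factor of the TFIIS family, it scored 469.34 and 92.78. USP30 and TCEA2 were thus near the top of list 1 but farther down list 2.

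Among the 15 best-ranked regions, 7 lay within 1000 bp of an annotated start: those in CIMAP1D, USP30, TCEA2, CCDC77, OSBPL3, GEMIN7 and GNB4. GEMIN7, a subunit of the SMN complex that assembles spliceosomal particles, scored 171.59 and 92.27 at 43 bp from its start. GNB4, a G protein beta subunit, scored 126.53 and 91.46 at 230 bp. CCDC77 scored 131.28 and 111.12 at 65 bp. OSBPL3, a lipid transfer protein of the oxysterol-binding family, scored 123.74 and 111.82 at 316 bp, but its peaks of both lists overlapped by only 20 bp. The remaining 8 regions, away from starts, lay in SH2B3, CHST2, PITPNM2, MCC, VOPP1, DPYSL5, AATK and ZNF579. MCC, a gene found mutated in colorectal cancers, held its region 52.9 kb from the nearest gene end, with scores of 109.28 and 115.04. DPYSL5, a protein of the collapsin response mediator family in neurons, scored 187.63 and 83.89 at 1870 bp from its start. AATK, a kinase studied in neurons, scored 109.62 and 103.90 close to the 3′ end, at 91.1% of the gene's length. High combined ranks thus occurred both near starts and deep in a gene.

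Annotated transcript starts lay within 1000 bp of 62 of 422 shared interior regions (14.7%, 11.6 to 18.4). The 32 regions on chromosome 8 are left out of every such share, because starts of that chromosome were not used here. Over all interior positions, 1.28% were this close to a start. Of interior list 1 peaks outside shared regions, 767 of 14842 (5.17%, 4.82 to 5.54) were at a start, and of such list 2 peaks 137 of 13764 (0.995%, 0.843 to 1.18). The share in shared regions was thus higher than in the peaks of either list alone. Because the rule requires a peak of each list, this difference is a description of what the overlap kept. Along the combined rank, the share was 33 of 106 (31.1%, 23.1 to 40.5) in the best-ranked group, then 12 of 105 (11.4%), 10 of 106 (9.43%) and 7 of 105 (6.67%, 3.27 to 13.1) in the lowest. Of the 30 best-ranked regions on the chromosomes with starts, 16 were at a start. Interior list 1 peaks as a whole differed in the same direction, with 158 of the best-scoring 1528 at a start (10.3%) and 66 of the lowest-scoring 1527 (4.32%). Interior list 2 peaks did not, with 22 of the best 1419 (1.55%) and 24 of the lowest 1418 (1.69%).

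**Figure D2:**
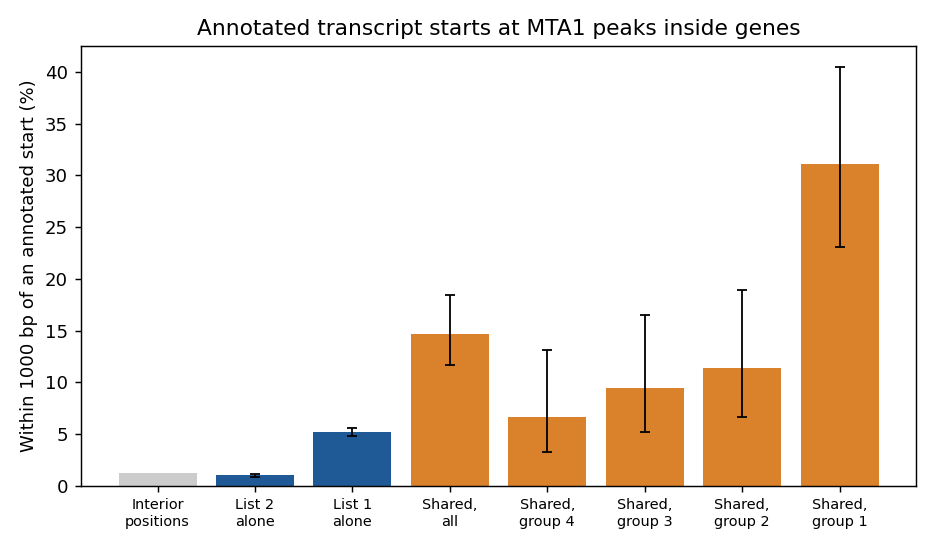
Share of midpoints within 1000 bp of an annotated transcript start (y axis, percent) for interior positions, interior peaks of list 2 or list 1 outside shared regions, and shared interior regions, all and in 4 groups by combined rank (the group labelled 1 best). Bars are shares and lines 95% Wilson intervals; the best-ranked group reaches 31.1% and interior positions 1.28%.

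Of the 62 regions at a start, 57 were at a start of their own host gene and 5 at that of a gene that is not protein-coding (LOC124904608 in CIMAP1D, LOC124900480 in TAFA5, LOC107984331 in OR9Q1, A2M-AS1 in KLRG1 and LOC105378728 in LRP8). In 56 of the 62 the start itself lay more than 1000 bp from every protein-coding gene end, so it was not the outer end of the gene as annotated. A total of 34 lay within 300 bp of the start. These regions scored higher in list 1, with a median of 102.565 against 62.985 for the 360 away from starts. In list 2 the medians were 64.05 and 60.915. The median percentile rank was 11.5% at starts against 52.3% away from them in list 1, and 40.1% against 48.9% in list 2. They were also wider, with medians of 1151.5 and 785 bp. Most of the gap in rank was therefore in list 1. The correlation between both scores was 0.28 over the 62 regions and -0.002 over the 360.

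Regions at a start, named here after their values were seen, included several in genes of known function. BANP, a DNA-binding protein of CpG-rich promoters, had the highest list 1 score of all 454 regions, 518.16, and a list 2 score of 80.09, at 515 bp from its start. The highest list 2 score among regions at a start was 173.12 (rank 111) in MINAR1, with 80.09 in list 1. COPS7B, a subunit of the COP9 signalosome, scored 122.05 and 85.54 at 3 bp from its start. RUVBL1, an ATPase of several chromatin remodelling complexes, scored 132.35 and 58.66 at 35 bp. STAT5B, a transcription factor activated by cytokines, scored 155.59 and 55.41 at 38 bp. BMAL1, a core factor of the circadian clock, scored 93.51 and 60.66 at 542 bp. FKBP5, a co-chaperone of steroid hormone receptors, scored 64.62 and 76.78 at 461 bp. The region deepest in its gene was in TENM3, a teneurin of neuronal adhesion, 658.6 kb from the nearest gene end and 499 bp from an annotated start, but its peaks of both lists overlapped by only 10 bp. Of the regions named in this paragraph with both scores, MINAR1, COPS7B and BANP had the highest list 2 scores.

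High scores in 1 list also occurred elsewhere, again named after their values were seen. TMEM101 ranked 21 in list 1 with a score of 466.18 and 9844 in list 2 with a score of 67.47. The nearest start used here lay 10.3 kb away. No start of TMEM101 itself was among those used, so whether this region lies at one is not known. On chromosome 8, whose starts were not used here, EXOSC4, a subunit of the RNA exosome, scored 374.43 and 55.56. TRAPPC9, a subunit of a vesicle tethering complex on the same chromosome, had the highest list 2 score of all 454 regions, 190.94, with 75.62 in list 1. None of these 3 ranked in the best 10% of both lists.

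The 300 base windows around the nearest starts (250 bases before to 50 after) were rich in GC and CpG. For the 62 regions the median GC content was 70.8% and the median ratio of observed to expected CpG was 0.825. For the 751 starts nearest to interior list 1 peaks outside shared regions these were 64.7% and 0.678, for the 135 nearest to such list 2 peaks 68.0% and 0.782, and for all 7954 starts at interior positions 54.0% and 0.346. The GC box GGGCGG, read on both strands, was in 75.8% of the 62 windows, in 56.6% of the 751, in 58.5% of the 135, in 32.5% of the 7954 and in 45.0% of all 33725 windows of the table. CCAAT, on both strands, was in 35.5% of the 62, 24.1% of the 751 and 34.4% of all windows. TATAAA, on both strands, was in 1 of the 62 (1.61%), 4.26% of the 751 and 11.6% of all windows. TGANTCA, the AP-1 core, on both strands, was in 2 of the 62 (3.23%), 3.86% of the 751 and 7.67% of all windows. For the 62, both shares rest on 1 or 2 windows. The shares of TATAAA and TGANTCA were thus below those of all windows at the starts of list 1 peaks too. None of the 4 motifs contains another. GC content and GGGCGG moved together over these sets of windows, and the part of base composition in the motif shares was not tested. Of the 5 sequences above, those before LOC124904608, CCDC77 and OSBPL3 hold GGGCGG or its complement, and those before CCDC77 and OSBPL3 hold CCAAT or its complement.

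The overlap of both lists, which the choice of regions used, is given here beside its value over nearby positions as a description. Of 16009 interior list 1 peaks, 463 overlapped list 2 (2.89%, 2.64 to 3.16), and of 15153 interior list 2 peaks, 458 overlapped list 1 (3.02%, 2.76 to 3.31). Shifting each list 1 peak to every offset within 50 kb gave an overlap of 1.97%, or 316 peaks. With 50% of both peaks required to overlap, the observed share was 1.91%, and in the better-scoring 50% of each list 1.56%, and for these no value over the offsets was computed. At annotated starts the overlap was 61 of 828 list 1 peaks (7.37%, 5.78 to 9.35), against 2.26% over the offsets. Away from starts it was 371 of 14446 (2.57%, 2.32 to 2.84) against 1.92%. For list 2 peaks it was 59 of 196 at starts (30.1%, 24.1 to 36.9) against 5.50%, and 366 of 13993 away from starts (2.62%) against 2.05%. The list 2 peaks at interior starts were few, and their share in shared regions was close to the 29.5% (344 of 1165) of list 2 peaks at gene ends.

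Interior placement was only slightly more common than the positions around the regions gave. Of 763 shared regions away from gene ends, 454 (59.5%, 56.0 to 62.9) lay inside a protein-coding gene. Of all positions within 50 kb of these 763 midpoints that were away from gene ends, 56.4% were inside, which would be 430 regions. The same 2 values were 58.9% and 55.6% for list 1 and 51.2% and 52.5% for list 2. The share of shared regions inside genes thus cannot be told apart, within counting error, from that of their surroundings or of list 1. The 51.2% of list 2 lay below the interval of the shared regions.

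Shared interior regions lay nearer to gene ends than interior positions did. Of the 454, 122 (26.9%) lay 1 to 5 kb from the nearest protein-coding gene end, where 11.1% of interior positions lie, and 92 (20.3%) lay 5 to 10 kb away, against 10.4% of positions. Between 10 and 50 kb there were 153 (33.7% against 37.9%), between 50 and 100 kb 45 (9.91% against 16.8%) and beyond 100 kb 42 (9.25% against 23.7%). These distances were not split for interior peaks outside shared regions. The number of protein-coding gene ends within 50 kb had a median of 2 in shared interior regions and in such peaks of each list. Its mean was 3.57 in shared interior regions, 3.38 in the list 1 peaks and 2.23 in the list 2 peaks. These counts do not give the distance to the nearest end. Whether nearness to gene ends was particular to shared regions was therefore not tested. Next to the limit of 1000 bp, the regions just inside it were SOX17 (1021 bp, scores 200.81 and 67.65), AMER2 (1052 bp, 98.07 and 90.40) and TNFSF9 (1052 bp, 85.25 and 81.32). SOX17 held 0 interior list 1 peaks, so the list 1 peak of its region had its midpoint outside the gene interior. The regions just outside the limit were ZNF436 (997 bp, 128.21 and 62.73), PAPPA (978 bp, 76.97 and 92.21) and ZDHHC22 (968 bp, 69.76 and 54.56). SOX17 is a transcription factor of endoderm, AMER2 a regulator of Wnt signalling and TNFSF9 a ligand of the tumour necrosis factor family.

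Relative position along the gene could be given for the 359 regions whose host had a strand in the promoter table. Split into 5 equal parts from the 5′ end, the genes held 83 (23.1%, 19.1 to 27.8), 63 (17.5%), 66 (18.4%), 74 (20.6%) and 73 (20.3%) of them, against 19.1% of interior positions in the first part and 20.6% in each of the next 3. The interval of the first part only just holds the share of positions. With a window of 3000 bp at gene ends the first part held 16.2%, and with 500 bp 28.6%. In the better-scoring 50% of each list it held 33.7%. Shares of positions were not computed for these other windows. Of the regions at a start, 28 of 62 (45.2%, 33.4 to 57.5) fell in the first part and 5 in each of the last 2. Of annotated starts at interior positions, 30.7% (2298 of 7481) were in the first part, and of interior list 1 peaks at a start outside shared regions 34.9% (253 of 724, 31.6 to 38.5), whose interval overlaps that of the 62. Of the 297 away from starts, 55 (18.5%, 14.5 to 23.3) were in the first part and 68 (22.9%, 18.5 to 28.0) in the last. Interior list 1 peaks outside shared regions rose from 16.7% in the first part to 24.0% in the last, and such list 2 peaks went from 20.6% to 16.3%. Away from starts, the spread along the gene thus lay within counting error of an even one.

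**Figure D3:**
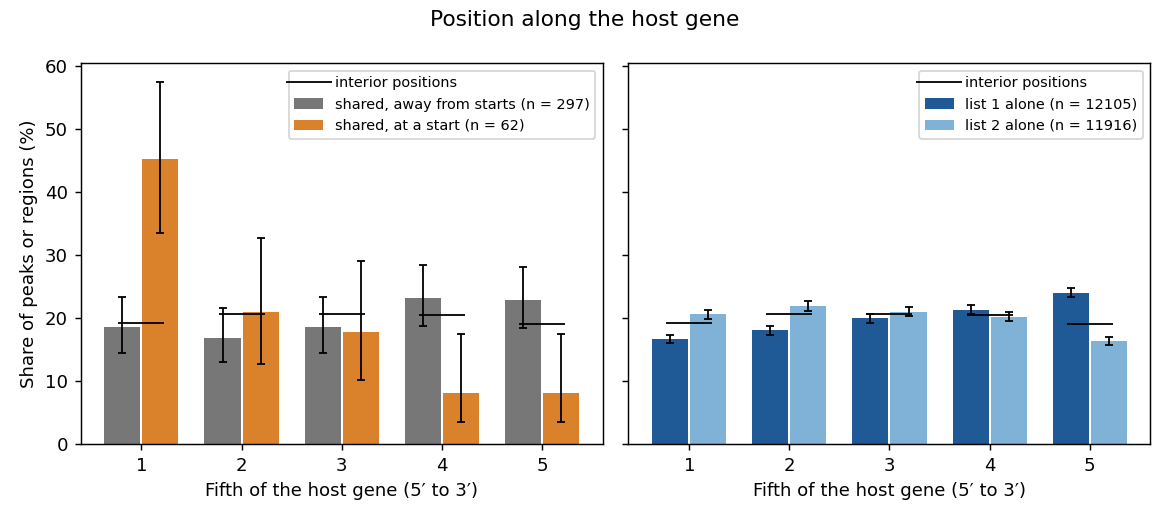
Position along the host gene, in 5 equal parts from the 5′ end (x axis), as the share of each set (y axis, percent), for shared interior regions at and away from annotated starts, interior peaks outside shared regions and interior positions. Regions at a start reach 45.2% in the first part, while those away from starts stay between 16.8% and 23.2%.

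Within 50 kb of its midpoint, a shared interior region had a median of 2 other list 1 peaks (mean 3.88) and 2 other list 2 peaks (mean 1.94). Interior list 1 peaks outside shared regions had a median of 3 other list 1 peaks (mean 4.66) and 1 list 2 peak (mean 1.42). Interior list 2 peaks outside shared regions had 1 list 1 peak (mean 1.49) and 2 other list 2 peaks (mean 2.09). A shared region was thus set among peaks of both lists. Another shared interior region lay within 50 kb of 24 regions, a shared region at a gene end within 50 kb of 20, and no other peak of either list within 50 kb of 26 (5.73%). The regions with the most neighbours were in ZFPM1 (28 of list 1 and 1 of list 2), ZNF469 (24 and 1), EXOSC4 (18 and 7), NHERF2 (22 and 2) and CACNA1H (18 and 4). ZFPM1 is a cofactor of GATA factors and NHERF2 a scaffold of membrane transporters. Of these 5, all but EXOSC4 are on chromosome 16, and their neighbours were mostly of list 1.

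**Figure D4:**
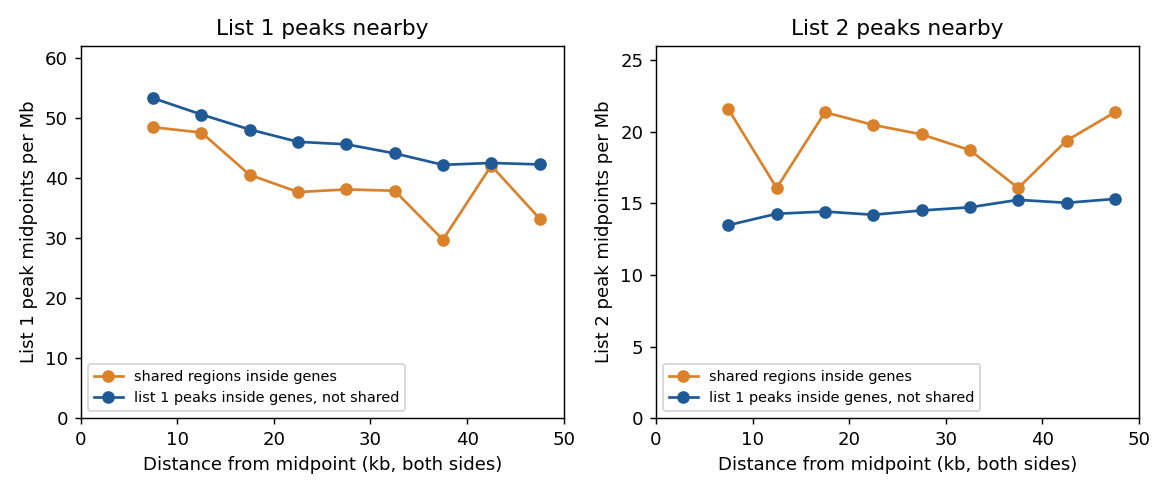
Peak midpoints of list 1 (left) and list 2 (right) per Mb (y axes) by distance from the midpoint (x axes, kb, both sides) of shared interior regions and of interior list 1 peaks outside shared regions, with the first 5 kb left out because the rule fixes it. From 5 to 10 kb, list 1 peaks stand at 48.5 per Mb around shared regions and 53.3 per Mb around the other list 1 peaks; list 2 peaks are denser around shared regions at every distance.

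Host genes were long, with a median of 85.4 kb against 24.5 kb over all protein-coding genes. Of 19122 protein-coding genes, 448 (2.34%) held a region, or 2.50% of the 17907 with interior positions. The share rose from 0.376% of genes up to 10 kb to 1.89% (10 to 30 kb), 2.49% (30 to 100 kb), 5.18% (100 to 300 kb) and 9.20% above 300 kb. Per 100 Mb of interior, the order was the opposite, from 134 regions in genes up to 10 kb through 116, 48.6 and 32.5 to 18.5 in genes above 300 kb. Long genes thus held a region more often, and each stretch of a short gene more often. Chromosome 19 had 37 regions, or 129 per 100 Mb of interior, chromosome 17 had 43 (103), chromosome 16 had 25 (67.3) and chromosome 8 had 32 (56.1), against 38.8 over all autosomes and 17.3 on chromosome 18. On chromosomes 16, 17 and 19 the interior peaks of list 1 were dense as well, at 28.0, 30.6 and 42.6 per Mb against 13.7 over all autosomes. Chromosome 22 had more list 1 peaks per Mb than 16 and 17 (33.3) but 43.7 regions per 100 Mb, near the value over all autosomes. List 2 peaks stood at 21.2 per Mb on chromosome 17, 19.1 on 19, 16.9 on 8 and 13.4 on 16 and 22, against 13.0 over all.

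**Figure D5:**
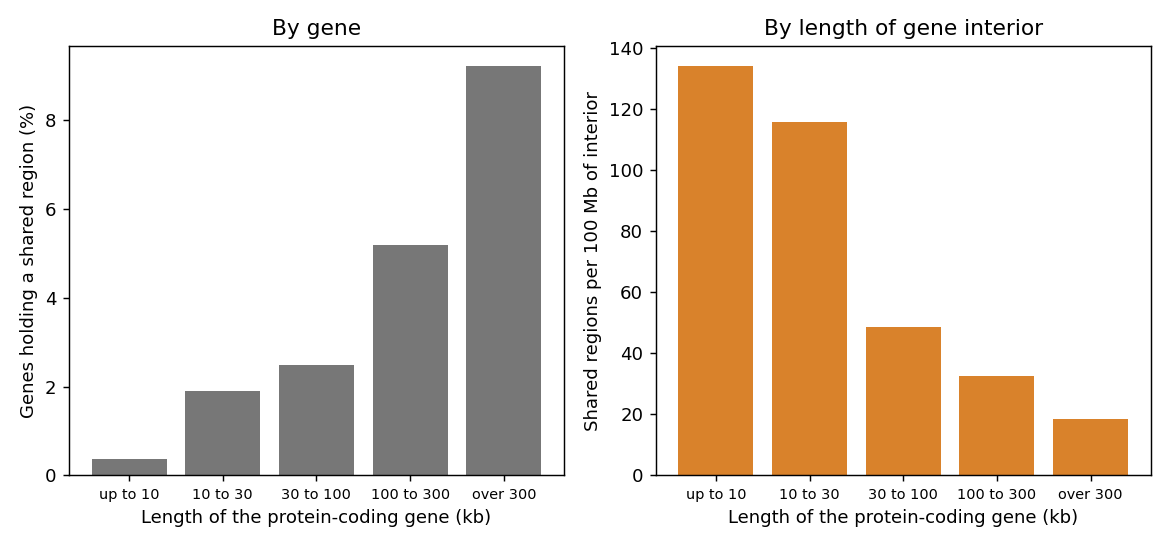
Share of protein-coding genes with a shared interior region (left, percent) and shared interior regions per 100 Mb of gene interior (right), both by gene length in kb (x axes). The left bars rise from 0.376% to 9.20% while the right bars fall from 134 to 18.5.

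A total of 16 genes held 2 or more regions. ATRNL1, a large gene of the attractin family, held 3 over 531 kb on chromosome 10, with list 1 scores of 57.25, 50.11 and 54.07 and list 2 scores of 77.00, 66.69 and 53.82, all low in list 1. The gene is 855.6 kb long and held 7 list 1 and 26 list 2 interior peaks. ABLIM1, an actin-binding LIM protein, held 2 regions 3.41 kb apart. One lay 88 bp from an annotated start and scored 158.57 and 77.57, with an overlap of 1224 bp, and the other scored 82.98 and 58.65. GATA6, a transcription factor of gut endoderm, held 2 at 1949 and 7475 bp from its 5′ end, with list 1 scores of 121.27 and 83.60 and list 2 scores of 57.02 and 50.86. PIEZO1, a mechanically gated ion channel, held 2 with scores of 72.70 and 93.87 and of 140.32 and 53.43. SCAF1, a protein that binds the tail of RNA polymerase II, held 2, of which 1 lay 75 bp from its start with scores of 198.09 and 63.31. The others with 2 regions included ADARB2, ANKFN1, CACNA1H, CAMKK1, GAPVD1, NCOA2, NHSL1, STAG1, TCF25 and ZNF469. STAG1, a cohesin subunit, had the lowest combined rank of all with 1 of its regions, at 50.71 and 50.03. The largest overlaps of both peaks were in ZNF469 (1490 bp), ZNF276 (1485 bp), SLC16A3 (1233 bp), ABLIM1 (1224 bp) and SNED1 (1113 bp), and the last 4 were at an annotated start. ZNF276 held 0 interior list 2 peaks, so the list 2 peak of its region had its midpoint outside the gene interior.

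Genes of known pathways, in 12 lists, were read against 2.34% of all protein-coding genes and 38.8 regions per 100 Mb of interior. Each list rests on 10 regions or fewer, so a value per length can turn on a single region. Of 14 NuRD subunit genes found, 1 held a region (7.14%, 1.27 to 31.5, an interval that holds the share of all genes). This 1 region gave 112 per 100 Mb. It lay in CHD5, a remodelling ATPase of the complex, and scored 56.40 and 50.80, close to the minimum of both lists. Of 75 other chromatin regulators, 5 did (6.67%, 46.2 regions per 100 Mb), among them EP300, KAT6A, KMT2C and NSD2. EP300, a histone acetyltransferase, scored 65.37 and 62.23. KMT2C, a methyltransferase of histone H3 at enhancers, scored 58.65 and 62.71. These values were near the medians of all regions. Of the 78 Wnt and TGF-beta genes in the list, 1 held a region, BCL9L, a coactivator of beta-catenin, with a list 1 score of 172.65 (rank 518) and a list 2 score of 71.01. The list is not complete: WNT6, BMP2 and AMER2, hosts of a region and named after their values were seen, are not in it. Of 70 genes in the list of receptor tyrosine kinases and the MAPK pathway, ALK and MAP2K1 held a region. That list is not complete either: LTK and MAP3K20, also hosts and named after their values were seen, are not in it. ALK, a receptor tyrosine kinase, scored 68.81 and 79.98 at 1.30 kb from its gene end, and MAP2K1, which activates ERK kinases, scored 65.51 and 56.89. Of 60 genes of splicing and RNA binding, U2AF2, which reads the polypyrimidine tract before exons, was the only host, at 59.59 and 64.50.

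The lists with the highest shares of hosts were those of long genes. Of 80 synapse and axon genes, 10 held a region (12.5%, 6.93 to 21.5), at 18.9 per 100 Mb. Of 31 genes of common fragile sites, 5 did (16.1%), at 14.6 per 100 Mb, among them AUTS2, CSMD1, DLG2 and WWOX, of which WWOX scored 63.41 and 72.67. AUTS2 and DLG2 are in both lists. Of 65 genes of ion channels and pumps, 7 did (10.8%), at 43.6 per 100 Mb, among them RYR1, the calcium release channel of muscle, with 102.63 and 55.31. Of 77 regulators of small GTPases, 6 did (7.79%), at 30.8 per 100 Mb. SOS2, an exchange factor for Ras, scored 58.65 and 81.14, TIAM2, an exchange factor for Rac, 59.46 and 67.65, and ACAP3, an Arf GTPase-activating protein, 52.66 and 90.85. Of 76 genes of adhesion, junctions and matrix, 4 did (18.3 per 100 Mb): AGRN, COL5A1, CTNND2 and PTPRT. PTPRT, a receptor phosphatase, scored 54.68 and 115.67 (rank 516 in list 2). Of 77 genes of cytoskeletal motors and scaffolds, ANK1, ANK2 and PLEC did, at 16.6 per 100 Mb. Of 34 genes of colon epithelium, which are short, 2 held a region (5.88%, 1.63 to 19.1, an interval that holds the share of all genes). Their 3 regions gave 197 per 100 Mb, the highest value of the 12 lists. GATA6 held 2 regions and CDHR2, a protocadherin of the brush border, 1 with scores of 62.34 and 56.09. Of the 43 regions in genes of the 12 lists, leaving aside those on chromosome 8, 0 were at an annotated start (95% interval 0 to 8.20%), against 14.7% of all shared interior regions.

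MicroRNA hairpins lay in 4 of the 454 regions: MIR6787 in SLC16A3, MIR34B in BTG4, MIR6776 in CLUH and MIR6793 in DNM2. Interior positions held 826 hairpins, counted only on the chromosomes for which hairpins were listed. The share of interior positions that the regions cover was not computed, so the 4 cannot be called many or few. The region in BTG4, an antiproliferative gene of the BTG family, scored 110.27 and 60 and lay 476 bp from an annotated start of BTG4. SLC16A3, a lactate exporter, scored 90.91 and 70.42. CLUH, which binds mRNAs of mitochondrial proteins, scored 120.51 and 55.34, and DNM2, a dynamin of endocytosis, 64.33 and 58.94. The peak lists say nothing of the level of these microRNAs.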

How the data were processed

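MTA1 and input libraries of HCT116 cells were sequenced from both fragment ends, per the labels' protocols. The submitters' processing notes name cutadapt, Bowtie2 and the build GRCh38. For the peak caller, version and settings were not given in the sources used here. The authors called peaks for each replicate separately and deposited, for each peak, its position and a score, whose scale is not stated; scores were only ranked and described within a list. Each list's control was identified by the shared number. Depth is unknown, and no spread between libraries could be estimated.

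Peaks on chromosomes 1 to 22 were merged and placed against a RefSeq gene table of GRCh38.p14. The table has no strand, so strand and transcript starts came from a RefSeq promoter table of the same build, which held 15100 of the 19122 protein-coding genes and 33725 starts. A start of a gene missing there cannot be counted. Starts of chromosome 8 were not used here. Positions are 1-based. A midpoint inside several genes counts for each, and the shortest gene is named. Shares over positions and offsets within 50 kb were computed exactly, without random draws. The members and the 12 gene lists (737 of 745 entries found) were chosen with earlier results of these data known.

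Named are the hosts of the 15 regions with the best summed rank, genes with 2 or more regions, the 5 regions with most neighbours, the 5 with the largest overlap, up to 3 of each list, any NuRD subunit, and the 3 regions on each side of the 1000 bp limit; others are said to be chosen after their values were seen. Some genes that the rule names are not reported here. Alternatives changed the overlap, the score threshold, the window at gene ends, the gene set, the neighbourhood and the distance to starts, or used 1 list. The code (python 3.11.15, pandas 2.3.3, numpy 2.4.6) was tested on simulated data.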

Additional observations from a re-analysis of the deposited data

How the results depend on the processing

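Of 64 alternative values over 10 results, 40 stayed within counting error of the value reported, or within 1.5 times for a count. Where each peak had to be covered to 50% or more, there were 299 regions, 1.91% of interior list 1 peaks overlapped list 2, and the median percentile rank in list 1 was 57.1%. In the better-scoring 50% of each list there were 121 regions in 120 genes, with an overlap of 1.56%, 33.7% in the first part of the gene, median percentile ranks of 37.8% and 39.0%, and 28.6% at a start. A window of 500 bp at gene ends gave 28.6% in the first part and 20.8% at a start. A window of 3000 bp gave 16.2% in the first part, a median percentile rank of 53.1% in list 1 and 11.6% at a start. With genes of every type, 68.0% of shared regions away from gene ends were inside and 11.1% at a start. Within 500 bp in place of 1000 bp, 11.1% were at a start, a choice made after seeing the data, as were all alternatives for starts. The median number of other peaks was 2 within 25 kb and 8 within 100 kb, against 4.5 within 50 kb. Interior peaks of 1 list alone, leaving out either replicate, gave from 51.2% to 58.9% inside genes, 16.9% to 20.6% in the first part and 1.38% to 5.42% at a start. With both lists kept, the share at a start ran from 11.1% to 28.6%. No paired analysis was possible because each list already sets 1 ChIP library against 1 control and no values per library were analysed here. Depth is unknown, so what it limits could not be measured.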
